A study of Homo sapiens with 9 samples.

Results

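The mitosis genes described here are 46 genes for mitotic kinases, the spindle checkpoint, kinetochores, the spindle, cytokinesis and chromosome condensation, taken by symbol from a list. All 46 were among the 35876 gene symbols of the deposited table. Their RNA was measured by RNA sequencing in 9 libraries of HEK293, a line derived from human embryonic kidney cells, in a series on a chemically induced, reversible gene knockout system. The genotypes were CC_Cas9 (the Cas9 group), CC_Cas9_Cre (the Cre group) and CC_Cas9_Flpo (the Flpo group), with 3 replicates each. Cas9, an RNA-guided DNA nuclease, and the prefix CC, which the labels leave unexplained, are thus common to all groups. Cre and Flpo are recombinases that act at loxP and FRT sites. The labels give no promoter, no target gene, no time and no word on whether a genotype was 1 clone or on separate cultures, so p-values measure the spread between these libraries, which may be technical.

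Entry into mitosis is driven by the kinase CDK1 bound to A-type and B-type cyclins. Polo-like and Aurora kinases then build the spindle, condensins compact the chromosomes, and kinetochores, with the NDC80 complex as their microtubule-binding part, attach them. The spindle checkpoint holds back CDC20, the activator of the anaphase-promoting complex (APC/C), until every chromosome is attached. The APC/C then marks securin (PTTG1) and the cyclins for destruction. Many of these genes are transcribed late in the cell cycle through a CHR element in the promoter, bound by the DREAM and MYB-MuvB complexes, and through CCAAT boxes, bound by NF-Y. HEK293 is a proliferating line, in which this programme is active.

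The libraries were unequal. Total counts ran from 993902 to 3761779 in the Cas9 group, from 213907 to 1701730 in the Cre group and from 4989524 to 8833491 in the Flpo group. Levels below are CPM, counts relative to the library total, scaled by TMM, a factor that aligns the bulk of genes between libraries, and 3 counts correspond to 11.2 CPM in Cre library 2 and to at most 2.57 CPM in every other library. In Cre library 2, 28 of the 46 mitosis genes had 3 counts or fewer and 8 had none. CENPA, the centromeric histone, had too few counts for the test, which left 45 mitosis genes among 11905 tested genes. Of 9 markers fixed for HEK293, KRT8, KRT18 and VIM were present in every library, whereas PAX2 was at 0 in all but Cas9 library 2. The extraction text of the labels mentions livers, and ALB was at 0 in every library but Flpo library 2. The summed liver list was led by TAT and came to 7.995 to 21.6 CPM with Cas9, 21.4 to 45.5 CPM with Cre and 1.76 to 14.1 CPM with Flpo. The 6 fibroblast markers summed to 264 to 893 CPM in the Cas9 libraries, 550 to 6484 CPM in the Cre libraries and 253 to 327 CPM in the Flpo libraries. COL1A1, COL1A2 and COL3A1 led these sums. DCN and LUM had counts in every library, LUM only 5, 4 and 2 in Cre libraries 1, 2 and 3. PDGFRA had none in Cas9 libraries 1 and 2 or in Cre libraries 2 and 3. COL1A2 had between 209 and 1052 counts in every library, whatever its total. In bulk RNA, fewer cells of a type and less RNA per cell cannot be told apart.

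Promoter sequence is shown first for 6 genes that passed the test between the recombinase groups. CHR and CCAAT letters are known from many genes of this class. All 6 hold TTTGAA or TTTAAA, which not every called gene does. The windows are the 130 bases before the RefSeq start, on GRCh38.p14. GENCODE 29 starts these genes 26 to 140 bases further upstream. Capitals mark TTTGAA (the CHR letters), TTTAAA and CCAAT on either strand, where TTTGAA appears reversed as TTCAAA and CCAAT as ATTGG. CCNB2 lies at chr15:59105016-59105145 (plus strand), CCNB1 at chr5:69167020-69167149 (plus strand), CDC20 at chr1:43358851-43358980 (plus strand), PTTG1 at chr5:160421725-160421854 (plus strand), ANLN at chr7:36389732-36389861 (plus strand) and INCENP at chr11:62123881-62124010 (plus strand).
CCNB2: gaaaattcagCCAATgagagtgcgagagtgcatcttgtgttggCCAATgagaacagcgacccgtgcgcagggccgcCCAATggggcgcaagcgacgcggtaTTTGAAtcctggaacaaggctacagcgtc
CCNB1: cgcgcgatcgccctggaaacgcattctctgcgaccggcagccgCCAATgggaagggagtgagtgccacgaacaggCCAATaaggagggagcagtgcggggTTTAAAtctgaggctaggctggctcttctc
CDC20: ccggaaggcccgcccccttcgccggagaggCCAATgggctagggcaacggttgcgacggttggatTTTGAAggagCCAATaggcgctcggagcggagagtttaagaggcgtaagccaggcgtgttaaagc
PTTG1: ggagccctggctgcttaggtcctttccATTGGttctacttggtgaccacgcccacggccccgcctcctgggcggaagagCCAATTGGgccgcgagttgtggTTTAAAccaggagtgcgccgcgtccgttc
ANLN: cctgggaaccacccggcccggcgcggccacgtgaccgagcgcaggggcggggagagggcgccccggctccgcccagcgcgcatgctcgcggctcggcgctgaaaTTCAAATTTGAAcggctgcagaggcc
INCENP: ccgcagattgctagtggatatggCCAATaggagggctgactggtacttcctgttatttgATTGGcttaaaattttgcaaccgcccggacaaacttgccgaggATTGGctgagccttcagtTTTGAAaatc
In CCNB2, TTTGAA started at −29 and CCAAT at −120, −87 and −54, counted from the RefSeq start. CCNB1 and PTTG1 held TTTAAA at −30 and −29 instead, and in PTTG1 the CCAAT matches of both strands overlap at −51 and −48. INCENP, which was called in the other direction in CPM, held TTTGAA at −10 with 3 CCAAT matches. In ANLN, TTCAAA and TTTGAA stood next to each other and no CCAAT was found. The 6 genes are not typical of the called genes. In the RefSeq windows nearest their GENCODE starts, AURKB, BUB1, CCNA2, CDK1, MAD2L1, NUF2 and SPC25, also called lower with Cre, held neither TTTGAA nor TTTAAA. Of these, CDK1, MAD2L1 and NUF2 held no CCAAT either. The RefSeq start lay 55378 bases from the GENCODE start for NUF2, 22941 for SPC25, 351 for AURKB and 226 for MAD2L1. For NUF2 and SPC25 these windows are thus not at the GENCODE start.

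RefSeq windows were matched for 40 of the 46 mitosis genes, 52 windows in all because some genes have several starts. TTTGAA was present in 21 of them (40.4%), against 6.23% of all 35116 RefSeq windows of the same length. TTTAAA was present in 19.2% against 5.31%, and CCAAT in 61.5% against 21.5%. TTTGAA and CCAAT together occurred in 32.7% of the windows of mitosis genes and in 1.49% of all windows. Among the mitosis genes called lower with Cre against Flpo, 4 of 16 windows (25%) held TTTGAA. Among those that did not pass the test 15 of 34 (44.1%) did. TTTGAA and CCAAT together were in 18.8% and 35.3% of these windows. The other letters went the other way, with TTTAAA in 25% and 14.7% and CCAAT in 68.8% and 55.9%. At least 2 CCAAT matches were in 56.2% and 29.4%. A match describes the letters of the window and does not show a bound site.

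Between the recombinase groups, 15 mitosis genes were lower and 1 was higher with Cre than with Flpo in edgeR's quasi-likelihood test at an adjusted p under 0.05. The lower genes were UBE2C, SPC25, NUF2, PTTG1, AURKB, CDC20, CCNB2, MAD2L1, CCNA2, CCNB1, BUB1, CDK1, AURKA, ANLN and KIF20A, and the higher gene was INCENP. These 16 are 35.6% of the 45 tested mitosis genes, where 20.5% of all tested genes passed. By direction, 33.3% of mitosis genes were lower, against 14.3% of all genes, and 1 was higher, where 6.17% of all genes were. The Cre and Flpo libraries did not overlap for 24 mitosis genes lower with Cre and 2 higher with Cre, 57.8% in all, against 43.2% of all genes (27.9% lower and 15.2% higher). At an unadjusted p under 0.05 there were 24 mitosis genes and 39.8% of all genes. The median log2 fold change was −1.39 over the mitosis genes and −0.34 over all genes, so that the mitosis genes stood 1.05 below the median of all genes on the log2 scale. With library totals in place of TMM the median of all genes turned to 0.44 while that of the mitosis genes stayed negative at −0.61. In that fit 12 mitosis genes passed, 10 of them lower. Their share of 26.7% is near the 24.2% of all genes that passed, with 7.06% of all genes lower and 17.1% higher. No call was left without Cre library 2, without Cre library 3 or without Flpo library 1, where adjusted p for the 16 genes ran from 0.0530 to 0.0872, from 0.0949 to 0.186 and from 0.0670 to 0.158, although all 16 kept their direction. Markers moved in the same comparison. Of 4 tested fibroblast markers COL1A1 (3.19, SE 0.83, edgeR adjusted p = 0.0243), COL1A2 (3.47, SE 0.96, edgeR adjusted p = 0.0287) and COL3A1 (3.04, SE 0.75, edgeR adjusted p = 0.0210) were higher with Cre, and DCN did not pass. TAT, the only tested liver marker, was higher with Cre too (3.17, SE 0.85, edgeR adjusted p = 0.0254). Of 5 tested HEK293 markers, KRT8 (−3.36, SE 0.80, edgeR adjusted p = 0.0199) and KRT18 (−4.42, SE 0.83, edgeR adjusted p = 0.0167) were lower with Cre, while VIM, EYA1 and NEFL had positive log2 fold changes of 0.23, 1.58 and 1.62 that did not pass, and the list's median was 0.23. The part of these markers in the calls of mitosis genes was not tested. Without Flpo library 3 the count of mitosis genes was 3 (6.67%, against 3.28% of all genes). Without Cas9 library 2, which enters through the shared spread, the count was 10 (21.7%, against 10% of all genes).

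**Figure D1:**
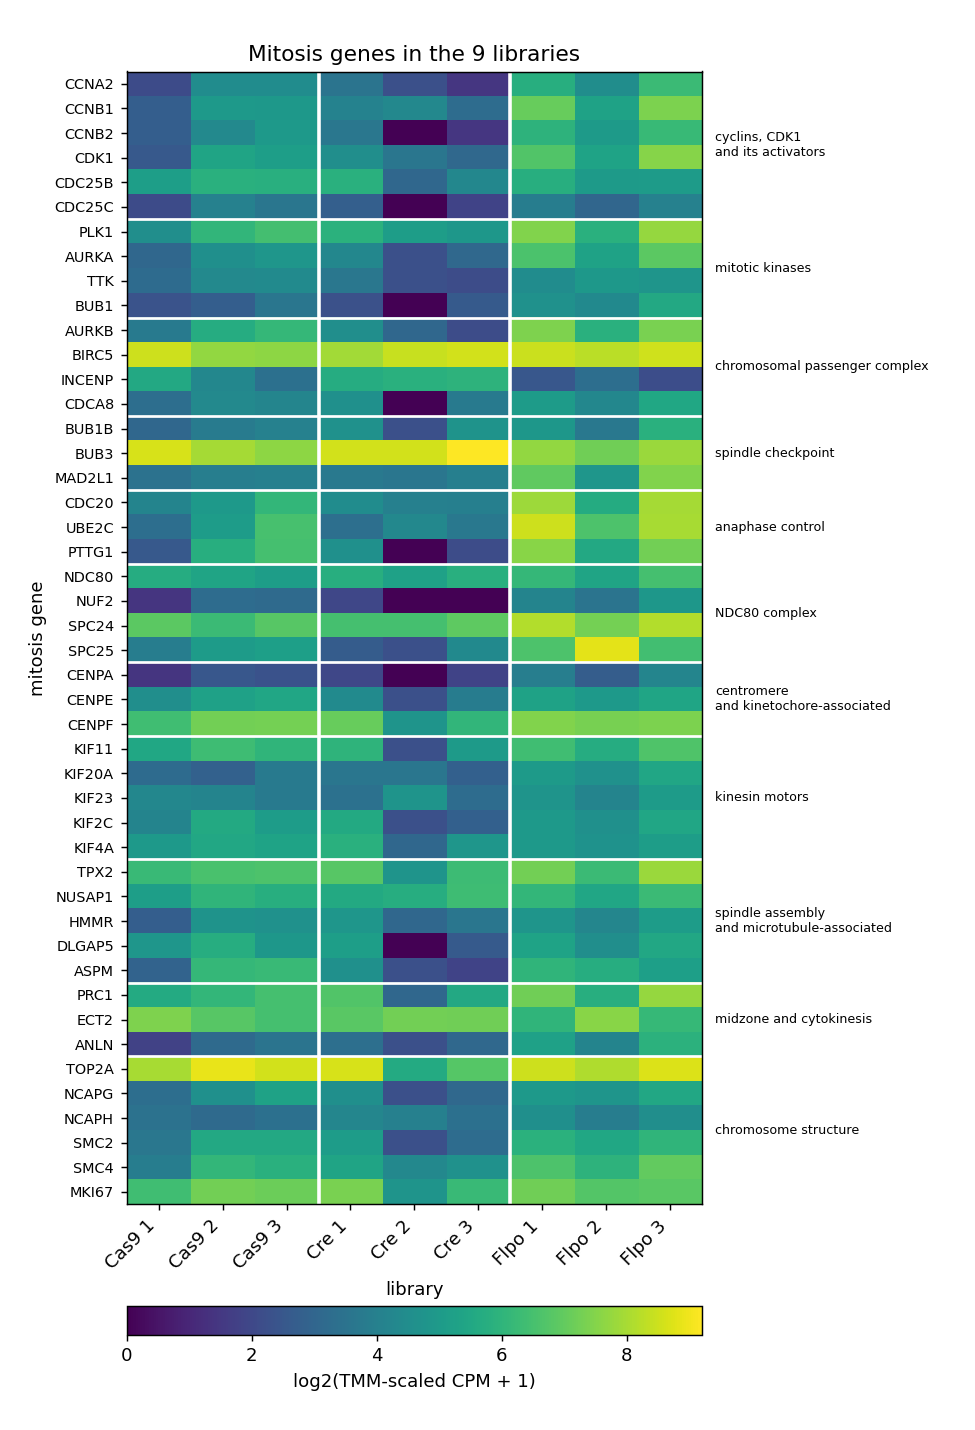
Each row is 1 of the 46 mitosis genes, ordered by role, and each column 1 of the 9 libraries. Colour gives log2 of TMM-scaled CPM plus 1. Flpo library 3 has the highest value for 25 of the 46 genes and Flpo library 1 for 5, and Cre library 2 has the lowest or a tied lowest value for 23 and Cas9 library 1 for 9, while BIRC5 and BUB3 stay bright in all 9 libraries and INCENP is darkest in the Flpo libraries.

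Levels differed within groups as well as between them. Flpo library 2 had the lowest value of the Flpo libraries for 41 of the 46 genes, and Cas9 library 1 the lowest of the Cas9 libraries for 37. Cre library 1 was the highest of the Cre libraries for 32. The group means ran in the order Cre, Cas9, Flpo for 31 of 46 genes, and the Flpo mean was the highest for 37. All 15 genes called lower had a higher mean with Flpo than with Cas9, and 14 of the 15 had a lower mean with Cre than with Cas9. For most of the 15 the Cas9 mean thus lay between the other means.

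**Figure D2:**
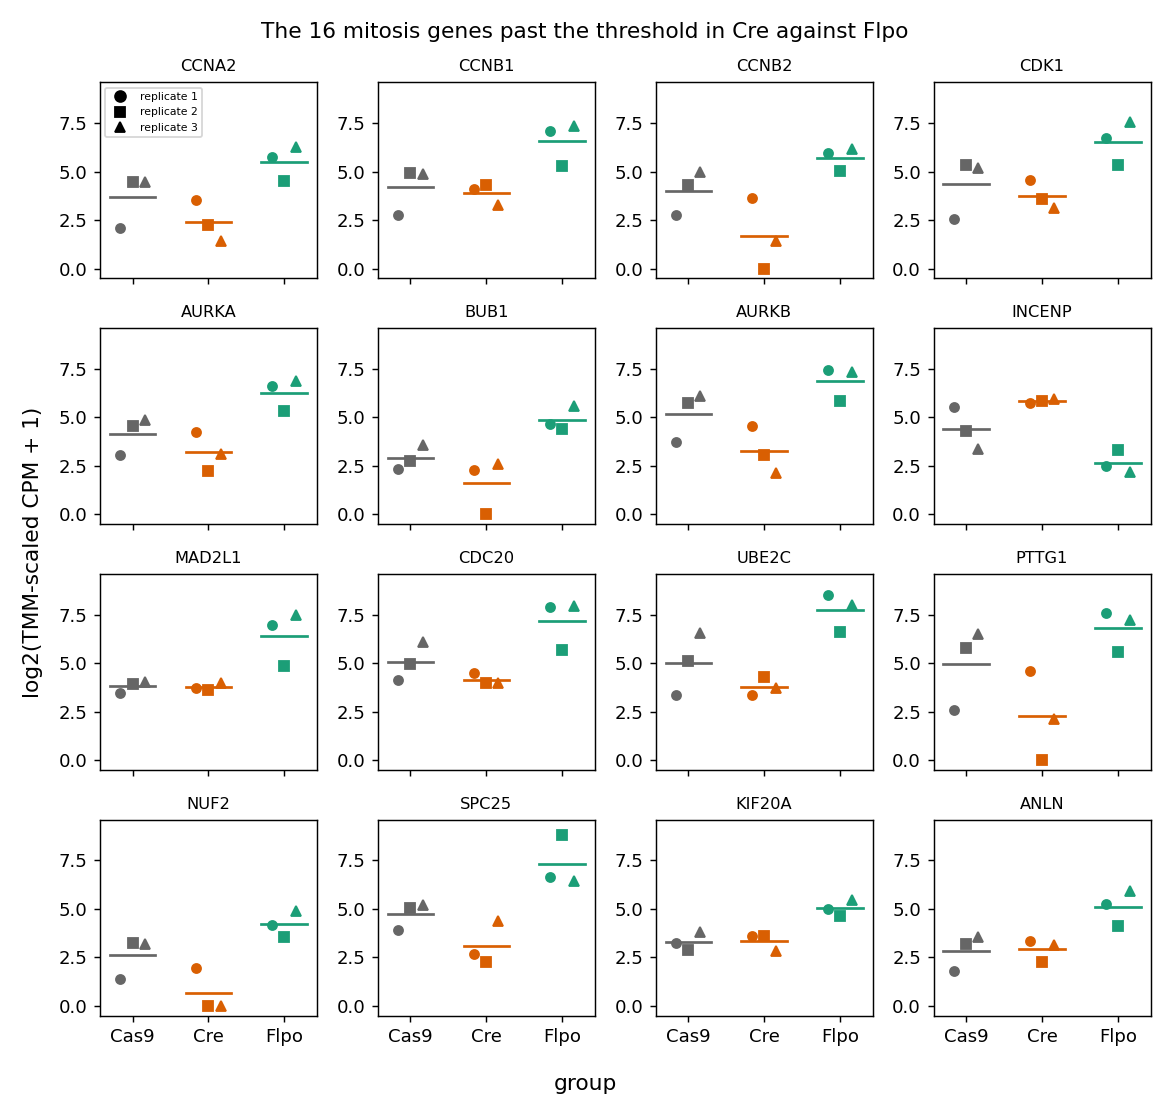
Each panel shows 1 of the 16 mitosis genes past the threshold between Cre and Flpo, with log2 of TMM-scaled CPM plus 1 per library, symbols for the replicate and a bar at the group mean. In 15 panels all 3 Flpo libraries lie above all 3 Cre libraries, and for INCENP they lie below.

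Of the cyclins, CDK1 and its activators, 4 of 6 fell in Cre against Flpo. CCNB1, the B-type cyclin that carries CDK1 into mitosis (chromosome 5, 69167010 to 69178245), stood at 5.82, 29.8 and 28.8 CPM in Cas9 libraries 1, 2 and 3, at 16.1, 18.7 and 8.58 CPM in the Cre libraries and at 134, 38.6 and 165 CPM in the Flpo libraries. The 3 Flpo libraries exceeded all others. The log2 fold change was −3.01 (SE 0.74, edgeR adjusted p = 0.0204), or −2.68 relative to the median of all genes. CCNB2, the second B-type cyclin (chromosome 15, 59105078 to 59125045), had 5.82, 18.9 and 30.6 CPM with Cas9, 11.7, 0 and 1.72 CPM with Cre and 60.4, 31.2 and 71.8 CPM with Flpo. It had no count in Cre library 2, all Flpo libraries were above all Cas9 libraries, and the log2 fold change between Cre and Flpo was −3.22 (SE 0.86, edgeR adjusted p = 0.0254). CCNA2, the cyclin of S phase and mitotic entry (chromosome 4, 121816444 to 121823933), had 3.32, 21.2 and 21.4 CPM with Cas9, 10.7, 3.73 and 1.72 CPM with Cre and 53.1, 21.7 and 76.3 CPM with Flpo. Here Flpo library 2 was only just above the highest Cas9 library, and the difference between Cre and Flpo was −3.05 (SE 0.85, edgeR adjusted p = 0.0289). CDK1 itself (chromosome 10, 60778331 to 60794852) had 4.99, 40.2 and 34.8 CPM with Cas9, 22.4, 11.2 and 7.72 CPM with Cre and 104, 39.1 and 186 CPM with Flpo. Cas9 and Flpo overlapped for CDK1, whereas Cre and Flpo did not, with a log2 fold change of −2.92 (SE 0.80, edgeR adjusted p = 0.0277). CCNA2 overlaps exons of EXOSC9 on the opposite strand and CCNB2 has 1 pseudogene in the table. Whether counting used strand is not given in the sources used here, so counts of such genes are uncertain. The phosphatases that activate CDK1 did not pass: the log2 fold change was −0.41 (SE 0.61) for CDC25B and −1.73 (SE 0.81) for CDC25C.

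Of 4 mitotic kinases, AURKA and BUB1 fell in Cre against Flpo. AURKA, the kinase of centrosomes and spindle poles (chromosome 20, 56369389 to 56392337), stood at 7.48, 22.95 and 27.7 CPM in Cas9 libraries 1, 2 and 3, at 18.03, 3.73 and 7.72 CPM in the Cre libraries and at 96.8, 38.8 and 117 CPM in the Flpo libraries. Flpo exceeded every Cas9 and Cre library, and the log2 fold change between Cre and Flpo was −2.92 (SE 0.70, edgeR adjusted p = 0.0198). BUB1, a checkpoint kinase at kinetochores (chromosome 2, 110637698 to 110678114), had 4.15, 5.74 and 11.1 CPM with Cas9, 3.90, 0 and 5.15 CPM with Cre and 24.5, 19.9 and 46.5 CPM with Flpo. Its counts were low outside the Flpo group, with none in Cre library 2, and the log2 fold change was −3.0 (SE 0.75, edgeR adjusted p = 0.0211). AURKA has 2 and BUB1 has 1 pseudogene among the symbols of the table. PLK1, the polo-like kinase, missed the threshold at −1.88 (SE 0.64, edgeR adjusted p = 0.0518), as did TTK, which starts checkpoint signalling, at −1.86 (SE 0.65, edgeR adjusted p = 0.0560).

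The chromosomal passenger complex split. It joins the kinase AURKB to the scaffold INCENP and to BIRC5 (survivin) and CDCA8 (borealin), and corrects faulty attachments at the centromere. AURKB (chromosome 17, 8204733 to 8210600) stood at 12.5, 51.6 and 68.8 CPM in Cas9 libraries 1, 2 and 3, at 22.4, 7.47 and 3.43 CPM in the Cre libraries and at 173, 56.7 and 162 CPM in the Flpo libraries. All Cre libraries were below all Flpo libraries, with a log2 fold change of −3.43 (SE 0.81, edgeR adjusted p = 0.0195). INCENP (chromosome 11, 62123973 to 62153163) stood at 45.7, 18.4 and 9.42 CPM in Cas9 libraries 1, 2 and 3, at 51.6, 55.99 and 60.9 CPM in the Cre libraries and at 4.66, 8.95 and 3.51 CPM in the Flpo libraries. The order of groups was reversed here, with the Cre libraries above all others and the Flpo libraries below all others, and the log2 fold change was 3.30 (SE 0.67, edgeR adjusted p = 0.0167), or 3.64 relative to the median of all genes. In raw counts INCENP stayed between 15 and 106 in the 9 libraries, a ratio of 7.07, whereas AURKB ran from 2 to 1014. As the raw counts of INCENP hardly followed the library totals, whether its order in CPM reflects expression is uncertain and was not tested. CDCA8 had 9.14, 18.9 and 17.1 CPM with Cas9, 23.9, 0 and 12.9 CPM with Cre and 32.6, 18.1 and 44.2 CPM with Flpo. It did not pass, at −1.16 (SE 0.72, edgeR adjusted p = 0.238). BIRC5 was abundant throughout, with means of 257 ± 91.6 CPM with Cas9, 322 ± 73.9 CPM with Cre and 342 ± 31.2 CPM with Flpo (SD, n = 3 each), and its log2 fold change of −0.09 (SE 0.50) was within its error.

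All 3 genes of anaphase control fell in Cre against Flpo. UBE2C, the ubiquitin-conjugating enzyme of the APC/C (chromosome 20, 45812576 to 45816957), stood at 9.14, 33.3 and 92.2 CPM in Cas9 libraries 1, 2 and 3, at 9.26, 18.7 and 12.01 CPM in the Cre libraries and at 367, 97.9 and 254 CPM in the Flpo libraries. Flpo libraries were the highest, and the Cas9 libraries spanned a wide range. Its log2 fold change of −4.28 (SE 0.84, edgeR adjusted p = 0.0167) was among the largest of the 45 genes, with 4 pseudogenes in the table with which reads may be shared. CDC20, the APC/C activator (chromosome 1, 43358955 to 43363203), had 16.6, 29.8 and 66.8 CPM with Cas9, 21.4, 14.9 and 14.6 CPM with Cre and 234, 49.8 and 249 CPM with Flpo. The Cre libraries were close to each other, Flpo library 2 lay within the Cas9 range, and the log2 fold change between Cre and Flpo was −3.35 (SE 0.72, edgeR adjusted p = 0.0172). PTTG1, the securin that restrains separase (chromosome 5, 160421822 to 160428744), had 4.99, 53.4 and 89.9 CPM with Cas9, 23.4, 0 and 3.43 CPM with Cre and 190, 46.5 and 149 CPM with Flpo. It had no count in Cre library 2, and its log2 fold change was −3.54 (SE 1.04, edgeR adjusted p = 0.0335). Of the spindle checkpoint proteins, MAD2L1, which sequesters CDC20, fell. MAD2L1 (chromosome 4, 120055608 to 120067074) stood at 9.97, 14.3 and 15.1 CPM in Cas9 libraries 1, 2 and 3, at 12.2, 11.2 and 14.6 CPM in the Cre libraries and at 124, 27.6 and 175 CPM in the Flpo libraries. Cas9 and Cre libraries coincided within 9.97 to 15.1 CPM and all 3 Flpo libraries lay above them, so that the log2 fold change was −3.08 (SE 0.66, edgeR adjusted p = 0.0172) against Flpo and −0.04 (SE 0.65) against Cas9. BUB3, the checkpoint adaptor, had 396, 247 and 199 CPM with Cas9, 380, 381 and 590 CPM with Cre and 209, 146 and 223 CPM with Flpo. The Cre libraries were all above the Flpo libraries, but the difference did not pass, at 1.23 (SE 0.52, edgeR adjusted p = 0.0983). BUB1B missed the threshold too, at −0.71 (SE 0.69).

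**Figure D3:**
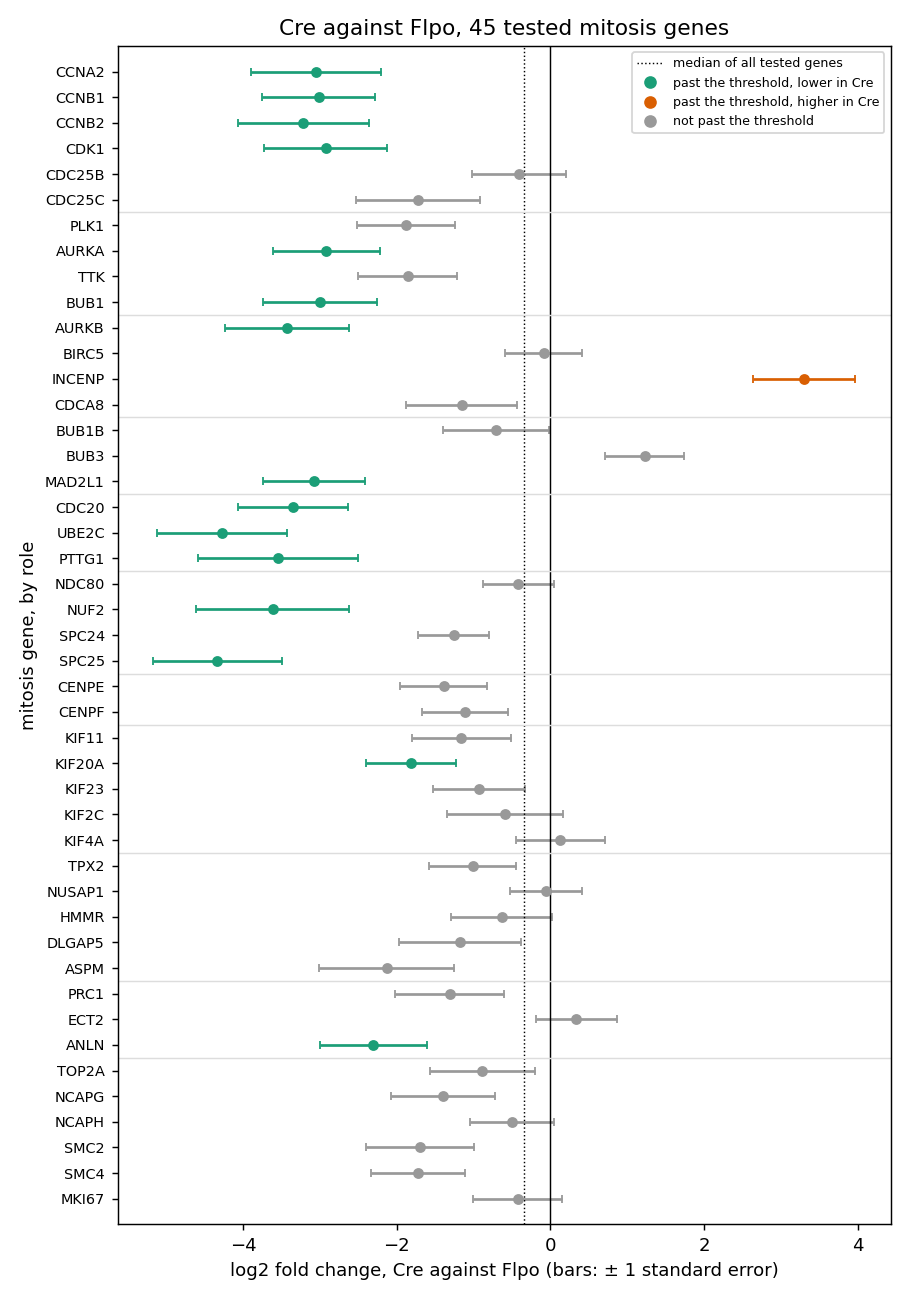
Points give the log2 fold change of Cre against Flpo for the 45 tested mitosis genes, grouped by role, with bars of 1 standard error on each side and a dotted line at the median of all tested genes. The 15 green genes pass the threshold as lower in Cre, INCENP (orange) passes as higher, and the 3 genes of anaphase control all lie below −3.

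In the NDC80 complex, SPC25 and NUF2 fell in Cre against Flpo, whereas NDC80 and SPC24 did not pass. SPC25 (chromosome 2, 168834132 to 168913371) stood at 14.1, 32.1 and 35.4 CPM in Cas9 libraries 1, 2 and 3, at 5.36, 3.73 and 19.7 CPM in the Cre libraries and at 98.9, 449 and 85.1 CPM in the Flpo libraries. Flpo library 2, which was the lowest Flpo library for most mitosis genes, had by far the highest value here. The log2 fold change was −4.34 (SE 0.84, edgeR adjusted p = 0.0167), and 13.5% of the 24-base words of SPC25 transcripts recur in transcripts of more than 10 other genes. NUF2 (chromosome 1, 163266576 to 163355764) had 1.66, 8.61 and 7.995 CPM with Cas9, 2.92, 0 and 0 CPM with Cre and 16.9, 10.7 and 28.4 CPM with Flpo. It had no count in Cre libraries 2 and 3 and overlaps exons of RGS5, and the log2 fold change was −3.62 (SE 1.0, edgeR adjusted p = 0.0285). SPC24 had 119, 77.5 and 112 CPM with Cas9, 90.1, 89.6 and 120 CPM with Cre and 282, 156 and 282 CPM with Flpo. The Flpo libraries were above all others, yet the difference of −1.26 (SE 0.47, edgeR adjusted p = 0.0684) missed the threshold. NDC80 was flatter, at −0.42 (SE 0.47). For the kinetochore motor CENPE, values were 22.4, 37.9 and 42.3 CPM with Cas9, 19.98, 3.73 and 13.7 CPM with Cre and 38.1, 29.9 and 41.3 CPM with Flpo. All Cre libraries were below all others, and the test against Flpo gave −1.39 (SE 0.56, edgeR adjusted p = 0.0888). CENPF, a large kinetochore-associated protein, had 83.1, 150 and 154 CPM with Cas9, 132, 26.1 and 65.2 CPM with Cre and 173, 158 and 166 CPM with Flpo. It did not pass, at −1.11 (SE 0.55, edgeR adjusted p = 0.149). CENPA, untested, had 0 to 109 counts per library.

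Of the kinesin motors, only KIF20A of 5 fell in Cre against Flpo. KIF20A, a motor of the anaphase midzone (chromosome 5, 138178719 to 138187715), stood at 8.31, 6.31 and 12.8 CPM in Cas9 libraries 1, 2 and 3, at 11.2, 11.2 and 6.01 CPM in the Cre libraries and at 31.4, 24.02 and 42.6 CPM in the Flpo libraries. Cas9 and Cre libraries overlapped, all Flpo libraries were higher, and the log2 fold change was −1.82 (SE 0.58, edgeR adjusted p = 0.0440). KIF20A overlaps exons of BRD8 and of CDC23, an APC/C subunit that itself fell (−3.99, SE 0.90, edgeR adjusted p = 0.0185). CDC23 had 1, 0 and 5 counts in Cre libraries 1, 2 and 3, so the size of its fall is uncertain. KIF11, the motor that separates the spindle poles, had 44.04, 81.5 and 64.8 CPM with Cas9, 61.9, 3.73 and 31.7 CPM with Cre and 82.5, 51.1 and 102 CPM with Flpo. The groups overlapped, and the difference was −1.16 (SE 0.64, edgeR adjusted p = 0.189). The remaining motors stood at log2 fold changes of −0.93 (SE 0.60) for KIF23, −0.59 (SE 0.75) for KIF2C and 0.13 (SE 0.58) for KIF4A.

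None of 5 spindle assembly genes passed. ASPM, a spindle pole protein, stood at 6.65, 69.4 and 74.5 CPM in Cas9 libraries 1, 2 and 3, at 23.9, 3.73 and 2.57 CPM in the Cre libraries and at 64.3, 51.9 and 35.8 CPM in the Flpo libraries. The Cre libraries were below all Flpo libraries, and the test gave −2.13 (SE 0.88, edgeR adjusted p = 0.0932). DLGAP5, a stabiliser of kinetochore fibres, had 27.4, 52.2 and 28.3 CPM with Cas9, 35.1, 0 and 5.15 CPM with Cre and 39.5, 22.5 and 44.5 CPM with Flpo. The groups overlapped and the difference was −1.18 (SE 0.79, edgeR adjusted p = 0.273). The AURKA activator TPX2 stood at −1.01, and the microtubule-associated HMMR and NUSAP1 at −0.63 and −0.06. Of the midzone and cytokinesis genes, ANLN fell. ANLN, the scaffold of the contractile ring (chromosome 7, 36389806 to 36453791), stood at 2.49, 8.03 and 10.6 CPM in Cas9 libraries 1, 2 and 3, at 9.26, 3.73 and 7.72 CPM in the Cre libraries and at 37.3, 16.6 and 59.1 CPM in the Flpo libraries. All Flpo libraries were above all others, with a log2 fold change of −2.31 (SE 0.70, edgeR adjusted p = 0.0367), and ANLN overlaps exons of KIAA0895. PRC1, which bundles midzone microtubules, had 49.03, 67.7 and 87.9 CPM with Cas9, 105, 7.47 and 46.3 CPM with Cre and 147, 53.4 and 214 CPM with Flpo. It overlapped between groups, at −1.31 (SE 0.71, edgeR adjusted p = 0.179), and ECT2, which activates RhoA at the cleavage furrow, was at 0.34 (SE 0.53).

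None of the 6 chromosome structure genes passed. SMC4, a core condensin subunit, stood at 14.1, 67.7 and 56.3 CPM in Cas9 libraries 1, 2 and 3, at 40.9, 18.7 and 24.02 CPM in the Cre libraries and at 99.5, 60.6 and 127 CPM in the Flpo libraries. The Cre libraries were below all Flpo libraries, and the difference was −1.73 (SE 0.61, edgeR adjusted p = 0.0583). SMC2, its partner, had 11.6, 46.5 and 46.3 CPM with Cas9, 33.1, 3.73 and 8.58 CPM with Cre and 58.3, 43.96 and 64.02 CPM with Flpo. The test gave −1.70 (SE 0.71, edgeR adjusted p = 0.0935). NCAPG and NCAPH, subunits of condensin I, stood at −1.40 and −0.50. TOP2A, the topoisomerase that untangles sister chromatids, stood at −0.89 (SE 0.68), and the proliferation marker MKI67 at −0.43 (SE 0.58).

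Against Cas9 alone no mitosis gene passed in either recombinase group. In simulated data with the estimated spread, 4-fold changes were not recovered for Flpo against Cas9. For Flpo against Cas9, edgeR called 0 of 45 mitosis genes, where 0.227% of all genes passed (0.218% higher and 0.0084% lower). At an unadjusted p under 0.05 there were 14 mitosis genes, and 20% of all genes. DESeq2 called 11 mitosis genes (23.9%), 10 of them higher with Flpo, and 7.55% of all genes. Once Flpo library 2 was left out, edgeR called 13 mitosis genes (28.3%), 12 of them higher, and 21.3% of all genes. The median log2 fold change was 0.77 over the mitosis genes and 0.05 over all genes, and 0.23 against −0.48 with library totals in place of TMM. The libraries did not overlap for 15 mitosis genes higher and 1 lower with Flpo, 35.6% in all, against 25% of all genes (12.8% higher and 12.2% lower). MAD2L1 had the largest log2 fold change, 3.04 (SE 0.64, edgeR adjusted p = 0.0590), followed by SPC25 at 2.94 (SE 0.76, edgeR adjusted p = 0.0813) and UBE2C at 2.40 (SE 0.74, edgeR adjusted p = 0.109). INCENP was the gene without overlap in the other direction, at −2.08 (SE 0.64, edgeR adjusted p = 0.110).

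For Cre against Cas9, edgeR called 0 of 45 mitosis genes and 0% of all genes, DESeq2 called 0 mitosis genes, and limma voom with sample quality weights called 21, of which 19 were lower with Cre. That voom fit called 33.3% of all genes (19% lower), against 46.7% of the mitosis genes. Its sample weights were 5.29 for Cas9 library 2, against 0.330 and 0.810 for Cas9 libraries 1 and 3. They were 5.58 for Flpo library 1, against 0.195 and 1.05 for Flpo libraries 2 and 3. The voom calls thus lean on single libraries. An unadjusted p under 0.05 was found for 5 mitosis genes and for 7.38% of all genes. The median log2 fold change was −0.68 over the mitosis genes and −0.22 over all genes, and −0.40 against 0.03 with library totals. Only CENPE, lower, and INCENP, higher, had no overlap between Cre and Cas9 libraries, 4.44% of the mitosis genes against 9.83% of all genes (6.37% lower and 3.46% higher). The largest falls were −2.18 (SE 1.0, edgeR adjusted p = 0.619) for PTTG1 and −2.13 (SE 0.88, edgeR adjusted p = 0.619) for ASPM, neither past the threshold. Both comparisons use the same Cas9 libraries, of which Cas9 library 1 was the lowest for most mitosis genes.

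Summed over the 46 genes, the groups were not separated. The mitosis genes took 0.259%, 0.296% and 0.259% of counts in the Cas9 libraries, 0.323%, 0.188% and 0.284% in the Cre libraries and 0.306%, 0.241% and 0.382% in the Flpo libraries. The ranges of all 3 groups overlap. These shares depend on what else fills a library. The transcript AC010970.1 took 9.99%, 21.9% and 17.7% of counts in the Cas9 libraries, 17.2%, 1.04% and 1.51% in the Cre libraries and 1.69%, 3.35% and 0.591% in the Flpo libraries. ACTB, cytoplasmic actin, stood at 629 to 1366 CPM with Cas9, at 867 to 4173 CPM with Cre and at 56576, 4078 and 47327 CPM in Flpo libraries 1, 2 and 3. Their part in the levels of mitosis genes was not tested. The most abundant members had other patterns than most of the list. BIRC5 and BUB3 together made up 35.4%, 16.3% and 14.3% of the summed mitosis counts in the Cas9 libraries, 23.2%, 48.4% and 44.8% in the Cre libraries and between 11.5% and 14.8% in the Flpo libraries. With ECT2 and INCENP added, these shares reached 62.1% in Cre library 2 and 12.9% in Flpo library 3. In raw counts, BUB3 varied 13.7-fold, ECT2 18.6-fold and BIRC5 25.1-fold between the lowest and the highest library, and INCENP 7.07-fold, while UBE2C varied 425-fold.

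Levels are compared between genes per length. Per kilobase of the longest coding transcript, BIRC5 was the most abundant mitosis gene with Cas9, at 94.7 ± 33.8 CPM per kb (SD, n = 3), and with Cre, at 119 ± 27.3 CPM per kb. With Flpo the order began with UBE2C at 262 ± 148 CPM per kb, SPC25 at 156 ± 152 and BIRC5 at 126 ± 11.5, which do not differ beyond their spread. UBE2C ranked 3 with Cas9 and 10 with Cre. INCENP was last of the 46 genes with Flpo, at 1.44 ± 0.72 CPM per kb, but ranked 11 with Cre, at 14.2 ± 1.17 CPM per kb.

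**Figure D4:**
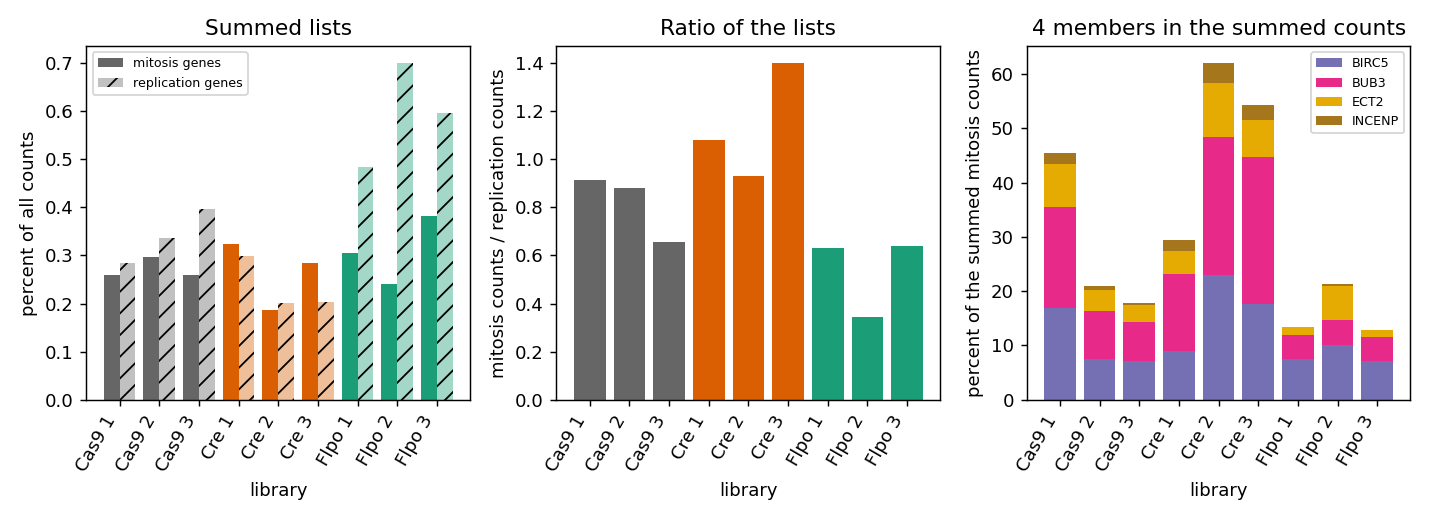
The left panel gives the percent of all counts in mitosis genes (solid) and replication genes (hatched) per library, the middle panel their ratio, and the right panel the percent of summed mitosis counts held by BIRC5, BUB3, ECT2 and INCENP. The ratio lies between 0.930 and 1.40 in the Cre libraries and between 0.344 and 0.640 in the Flpo libraries, and the 4 genes hold 62.1% in Cre library 2.

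Genes of DNA replication and nucleotide supply, fixed as a list of 46, were the closest comparison. Of 45 tested, 21 fell and 0 rose in Cre against Flpo (46.7%), with a median log2 fold change of −2.23, against 33.3% lower and −1.39 for the mitosis genes. TYMS, which makes thymidylate, CDC45, a part of the replicative helicase, and PCNA, the sliding clamp, had the 3 largest falls of the list, with log2 fold changes of −4.62 (SE 0.89, edgeR adjusted p = 0.0167), −4.62 (SE 1.21, edgeR adjusted p = 0.0243) and −4.06 (SE 0.76, edgeR adjusted p = 0.0167). In Cre libraries 1, 2 and 3, CDC45 had 7, 0 and 1 counts and TYMS 5, 2 and 9, so the sizes of their falls are uncertain. The ratio of summed mitosis to summed replication counts, which no scaling between libraries can change, was 0.913, 0.880 and 0.656 in the Cas9 libraries, 1.08, 0.930 and 1.40 in the Cre libraries and 0.633, 0.344 and 0.640 in the Flpo libraries. All Cre libraries were above all Cas9 and Flpo libraries, and all Flpo libraries below all Cas9 libraries. BIRC5, BUB3, ECT2 and INCENP held 29.4%, 62.1% and 54.3% of the mitosis sum in Cre libraries 1, 2 and 3. In Cas9 libraries 1, 2 and 3 they held 45.5%, 21.0% and 17.8%. Without these genes the Cre libraries would not all lie above the Cas9 and Flpo libraries, so the place of Cre depends on them. The replication sum of Flpo library 2 was dominated by ORC4, with 20552 counts there, while the mitosis genes summed to 12040. ORC4 had 1962 and 2069 counts in Flpo libraries 1 and 3. Without ORC4, Flpo library 2 would not lie below all Cas9 libraries, so the order of Flpo and Cas9 depends on this gene. The ratio is a description and was not tested.

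Other genes of mitosis were counted by list, all in Cre against Flpo, since none passed against Cas9 in edgeR. Each count stands against the 14.3% of all tested genes that were lower and the 6.17% that were higher. Of the 24 tested genes of the inner centromere and outer kinetochore, 8 fell (33.3%) and 1 rose. The largest falls were CENPW, a histone-fold protein of the inner kinetochore, at −6.55 (SE 1.38, edgeR adjusted p = 0.0167), ZWINT, a partner of KNL1, at −5.74 (SE 1.16, edgeR adjusted p = 0.0167) and SKA2, of the microtubule-binding SKA complex, at −4.19 (SE 0.67, edgeR adjusted p = 0.0167). CENPW had 2, 0 and 0 counts in Cre libraries 1, 2 and 3, so the size of its fall is uncertain. The riser was KNL1, the scaffold that recruits BUB1 and BUB3, at 2.64 (SE 0.67, edgeR adjusted p = 0.0228). Its raw counts were 341, 29 and 282 in the Cre libraries and 94, 200 and 101 in the larger Flpo libraries. As for INCENP, whether its order in CPM reflects expression is uncertain and was not tested. Of 16 APC/C genes 3 fell, a share of 18.8% that is near that of all genes, namely CDC23, ANAPC11 (−3.27, SE 0.88, edgeR adjusted p = 0.0267) and UBE2S (−2.72, SE 0.81, edgeR adjusted p = 0.0349). Of the 4 other condensin subunits NCAPD2 (−3.34, SE 0.71, edgeR adjusted p = 0.0167) and NCAPG2 (−2.45, SE 0.71, edgeR adjusted p = 0.0319) fell, and of 13 cohesin genes SMC3 alone fell (−2.27, SE 0.65, edgeR adjusted p = 0.0309), a share of 7.69% that is below that of all genes. CDKN2A (−4.30, SE 0.93, edgeR adjusted p = 0.0172), CDK4 (−2.75, SE 0.69, edgeR adjusted p = 0.0218) and CDK2 (−2.31, SE 0.75, edgeR adjusted p = 0.0448) fell among 11 G1 cyclins, kinases and inhibitors (27.3%). Neither the 8 tested genes for control of mitotic entry and exit nor the 13 G2/M transcription factors had a gene past the threshold. FOXM1 (−1.55, SE 0.59) and MYBL2 (−1.47, SE 0.65) were among the transcription factors. At an unadjusted p under 0.05 there were 2 of the 8 and 4 of the 13, against 39.8% of all tested genes.

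Transcript length moved with the difference. The 15 genes lower with Cre had a median longest coding transcript of 2.17 kb (0.914 to 5.47 kb), and the 29 that did not pass had one of 3.73 kb (2.13 to 12.7 kb). Over the 45 genes the rank correlation of the log2 fold change of Cre against Flpo with length was 0.46, and that of Flpo against Cas9 was −0.53. These genes were measured in the same libraries and are not independent. For Cre against Cas9 the correlation with length was 0.26. The correlation with the share of repeated sequence was 0.16 in Cre against Flpo, 0.09 in Flpo against Cas9 and 0.38 in Cre against Cas9. The part of length, library total and fibroblast markers in the calls was not tested beyond fits with other settings. With each library's log2 total as a covariate no mitosis gene (2 at an unadjusted p under 0.05) and no other tested gene passed. Of all 11905 tested genes, 732 had an unadjusted p under 0.05 for Cre against Flpo in that fit. The median of the mitosis genes then turned to 0.30. After thinning all libraries to the smallest total, 9 of 21 testable mitosis genes passed (42.9%), 8 of them lower. Of all genes testable after thinning, 21.9% passed and 14.5% were lower.

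**Figure D5:**
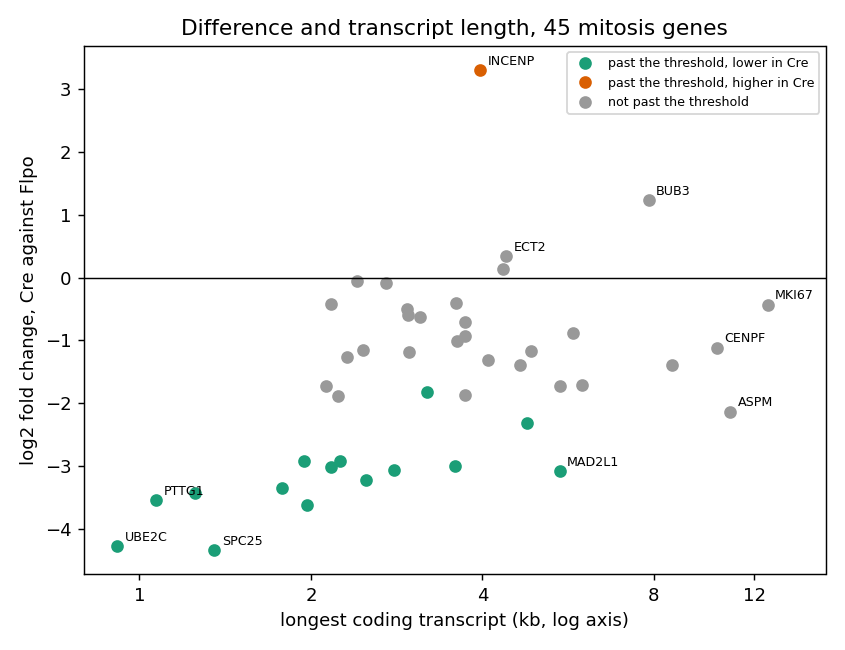
Each point is 1 of the 45 tested mitosis genes, with the longest coding transcript in kb on a log axis and the log2 fold change of Cre against Flpo. The 4 shortest, UBE2C, PTTG1, AURKB and SPC25 (0.914 to 1.35 kb), all pass as lower, and the 3 longest, CENPF, ASPM and MKI67 (10.3 to 12.7 kb), do not pass.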

How the data were processed

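RNA of 9 HEK293 libraries (3 genotypes, 3 replicates each) was analysed. The deposited table holds estimated counts per gene symbol, of which 48.7% to 60.8% per library are not whole. The submitters' processing notes name Salmon 0.14.1 and hg38, and the settings are not given in the sources used here. The estimated counts were rounded and tested with edgeR 4.0.16 (R 4.3.3), using TMM scaling, the default filter (minimum count 10, minimum total 15), a quasi-likelihood fit over all 9 libraries without covariates, and Benjamini-Hochberg adjustment over 11905 genes, with a threshold of 0.05. The other 23971 symbols were not tested. A standard error is the absolute log2 fold change over √F, with F from the quasi-likelihood test. Alternatives used limma 3.58.1 and DESeq2 1.42.0. The scripts were tested on simulated data for Flpo against Cas9. With the estimated spread, edgeR recovered 0 of 200 genes changed 4-fold and 183 of 200 changed 16-fold. A gene not called in that comparison may thus still have changed 4-fold.

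Positions and transcript lengths came from GENCODE 29 (GRCh38, 35378 symbols matched), and promoters from RefSeq (GRCh38.p14). The members and gene lists were chosen with earlier results of these data known. Full values are given for members past the threshold, up to 4 per role, and for the 2 largest changes per role between Cre and Flpo among genes with a mean of at least 50 counts. From other lists up to 3 genes per direction are named. Further genes named with a value, such as PLK1, TTK, BIRC5 and FOXM1, were chosen for their known roles after their values were seen. Total counts ran from 213907 to 8833491, so precision differs most for the Cre libraries. Floors of 3 counts cover counting error only.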

Additional observations from a re-analysis of the deposited data

Results flagged for a closer look

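Cre and Flpo were each compared with the same Cas9 libraries, and the contrast of Cre with Flpo is the test of the difference between those effects. In edgeR 16 mitosis genes passed it, 15 lower and 1 (INCENP) higher with Cre, although no mitosis gene passed against Cas9 in either group. Every Cre total was below every Flpo total (at most 1701730 against at least 4989524 counts), so that genotype and library total cannot be told apart.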

How the results depend on the processing

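Of 16 mitosis genes called between Cre and Flpo, all 16 were called with DESeq2 size factors, and 12 genes were called with library totals, 18 without a filter, 12 with a stricter filter, 14 with only the groups compared and 22 by DESeq2. The count was 0 with the log2 total as a covariate, 9 after thinning and 38 by voom with sample quality weights. The shares of mitosis genes and of all tested genes were 26.7% and 24.2% with library totals and 39.1% and 14.2% without a filter. They were 38.7% and 25.9% with the stricter filter, 30.4% and 16.9% with only the groups compared, and 47.8% and 27.3% by DESeq2. After thinning they were 42.9% and 21.9%, by voom 84.4% and 67.6%, and with the covariate 0 and 0. With the covariate the log2 fold changes of CCNB2, PTTG1 and ANLN reversed to 0.36, 1.82 and 0.039, and the median moved to 0.30, against −0.61 with library totals. The cause was not tested. Leaving out 1 library gave 0 to 22 calls and medians from −2.25 to −1.16. For Flpo against Cas9, 8 mitosis genes were called without a filter (17.4%, against 4.6% of all genes) and 11 by DESeq2 (23.9%, against 7.55%). With voom 28 were called, a share of 62.2% that is near the 61.0% of all genes. Leaving out 1 library gave 0 to 13 calls. The median was −0.37 with the covariate and 0.57 to 1.18 with 1 library left out. For Cre against Cas9, voom called 21, and leaving out 1 library called 0, with medians from −1.16 to −0.43.

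Over all genes, the 2440 calls between Cre and Flpo became 1622 with the stricter filter, 0 with the covariate, 1070 after thinning, 4076 by DESeq2, 8043 by voom and 0 to 5559 with 1 library left out. The split of 735 higher and 1705 lower became 2039 and 840 with library totals. For Flpo against Cas9 the 27 calls became 12 with library totals, 1169 without a filter, 2 with the stricter filter, 0 with only the groups compared, 0 with the covariate, 17 after thinning, 1090 by DESeq2, 7268 by voom and 0 to 2685 with 1 library left out. For Cre against Cas9 the 0 calls became 51 without a filter, 4 by DESeq2 and 3960 by voom. Single genes kept direction and call in 189 fits, lost the call in 96 and reversed in 3.

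With a replicate block, 11 mitosis genes were called between Cre and Flpo (24.4%, against 13.2% of all genes), all among the 16. The count was 0 against Cas9 in either group. Over all genes, 1568, 6 and 0 were called in Cre against Flpo, Flpo against Cas9 and Cre against Cas9. Equal replicate numbers did not pair the libraries: same-number correlations of deviations ran from −0.49 to −0.15 for Cre against Cas9, from −0.56 to 0.53 for Flpo against Cas9 and from −0.23 to 0.38 for Cre against Flpo, where 0, 1 and 3 of 6 libraries correlated best with their own number. In Cre library 2, 3 counts correspond to 11.2 CPM, and differences below that level were not detectable there.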
